A study of Mus musculus with 8 samples.

Results

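Amino acid transporters of the solute carrier families SLC1, SLC3, SLC6, SLC7, SLC36, SLC38 and SLC43 were examined in single nuclei of mouse kidney. Members were the genes whose symbol names any of these families, antisense transcripts ending in os excluded, with at least 100 UMIs (unique molecular identifiers, each standing for 1 captured RNA molecule) over the nuclei kept. Of 63 genes with such a symbol among the 32285 genes of the files, 51 met the rule. Slc1a6 with 125 UMIs and Slc6a2 with 143 lay just inside the limit, and Slc1a7 with 98 and Slc7a10 with 86 just outside it.

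Free amino acids pass the glomerular filter and are taken back almost completely by the proximal tubule. Apical carriers, many of them driven by the sodium gradient, bring them into the cell, and basolateral exchangers and uniporters release them towards the blood. Some of these carriers are heteromers of a light chain of SLC7 with a heavy chain of SLC3, and others, such as the carriers of taurine and betaine, serve osmolyte storage in the medulla.

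The 8 libraries were single-nucleus RNA-seq of frozen kidneys of 8 male mice on the C57BL/6J background, killed at 14 weeks of age at zeitgeber time ZT4 or ZT16, that is 4 h into the light phase or 4 h into the dark phase of a 12-h light and 12-h dark cycle. All mice carried floxed Bmal1 (Arntl) alleles (Bmal1lox/lox) and drank doxycycline at 2 mg/ml with 20 mg/ml sucrose for 2 weeks from an age of 8 weeks. The cKOt mice also had the transgenes Pax8-rtTA and LC-1 Cre, which delete Bmal1 in tubule cells on doxycycline, and the Ctrl littermates did not. Each of the 4 groups (Ctrl ZT4, Ctrl ZT16, cKOt ZT4, cKOt ZT16) had 2 libraries, 1 per mouse, so that p-values rest on the spread between pairs of mice.

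After filtering, 81391 nuclei of 82784 barcodes remained, with 36548873 to 54500820 UMIs per library, and 823 of 80565 distinct barcodes occurred in more than 1 library. The members held 1205021 of 377882072 UMIs, 0.302 to 0.343% per library. Nuclei were clustered on genes other than the members, and 34 of 38 clusters, holding 98.2% of nuclei, were named by markers into 20 classes, abbreviated as follows: PCT and PST, convoluted and straight proximal tubule; thinDL and thinAL, thin limbs; TAL, thick ascending limb; MD, macula densa; DCT and CNT, distal convoluted and connecting tubule; CCD and MCD, cortical and medullary collecting duct; aIC and bIC, intercalated cells; UT, urothelium; Podo, podocytes; Vasc, endothelium; Mes/Per, mesangial cells and pericytes; SMC/JGC, smooth muscle and juxtaglomerular cells; Myel and BC, myeloid and B cells; and a cluster of 76 adipocyte nuclei, with 25 and 41 of them in the cKOt ZT4 libraries. PCT held 22369 nuclei (27.5% of all) and PST 3644 (4.48%).

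The PCT nuclei came from clusters that were not evenly shared by the groups. Clusters 2, 5 and 6 (14406 nuclei) met the marker rule for PCT alone, with Slc5a2 and Slc5a12, the sodium-coupled glucose and lactate carriers of the early tubule, at 706 ± 95.75 and 4375 ± 1046 CPM (a gene's UMIs relative to all protein-coding UMIs of the same library and class, on the scale known as CPM; SD, n = 8). Clusters 4 and 11 (7963 nuclei) met the rules for both PCT and PST and scored higher for PST (mean marker z-score 2.12 against 1.38 for PCT in cluster 4 and 2.03 against 1.52 in cluster 11), with Slc5a2 at 33.2 ± 9.47 CPM and Slc13a3, a dicarboxylate carrier, at 702 ± 142 CPM, and were counted as PCT. Cyp7b1, the leading PST marker, stood at 6690 ± 2145 CPM in PST and at 109 ± 59.7 CPM in clusters 4 and 11. Of cluster 11, 49.4% of nuclei came from Ctrl ZT4 and 50.3% from Ctrl ZT16, whereas 44.5 and 43.3% of cluster 4 came from cKOt ZT4 and cKOt ZT16. Cluster 6 drew 51.9% of its nuclei from Ctrl ZT4 and 5.7% from cKOt ZT16, and cluster 2 drew 4.7 and 47.9% from the same groups. The PST nuclei, taken from 1 cluster at these settings, came to 23.2 to 27.1% from each group. With 50 components instead, PST nuclei divided into clusters that were not evenly shared, 1 of 1348 nuclei with 38.4 and 60.1% from cKOt ZT4 and cKOt ZT16, 1 smaller cluster with 97.0% from cKOt ZT4, and 2 of 895 and 821 nuclei with 47.9 and 43.6% from Ctrl ZT4 and 51.4 and 49.9% from Ctrl ZT16. Values for PCT therefore compare partly different clusters, and the values within clusters 2, 5 and 6 or 4 and 11 are given where they bear on a call. These ranges do not remove the imbalance. Clusters 2 and 6 lie in the same range, as do clusters 4 and 11, so values within a range also compare partly different clusters. Of the PCT nuclei, clusters 2, 5 and 6 together held 64.9 and 59.0% in the Ctrl ZT4 libraries and 68.8 and 55.7% in Ctrl ZT16. In cKOt they held 65.1 and 66.45% at ZT4 and 66.8 and 66.6% at ZT16.

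The proximal tubule held most of the transporter transcripts. PCT and PST together carried 69.5% of the members' UMIs, and the members made up 0.753 ± 0.079% of protein-coding UMIs in PST and 0.538 ± 0.039% in PCT (SD, n = 8 libraries). In the other compared classes this share was between 0.140 ± 0.011% in Podo and 0.304 ± 0.011% in thinAL. Of the 51 members, 7 had their highest mean level in PCT, 12 in PST and 32 in another class, over the 19 classes with at least 10 nuclei in every library. For 23 members the top class exceeded the next class in all 8 libraries, and for 28 it did not. The same count was not made for other genes. For 16 members more than 80% of UMIs were proximal.

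**Figure D1:**
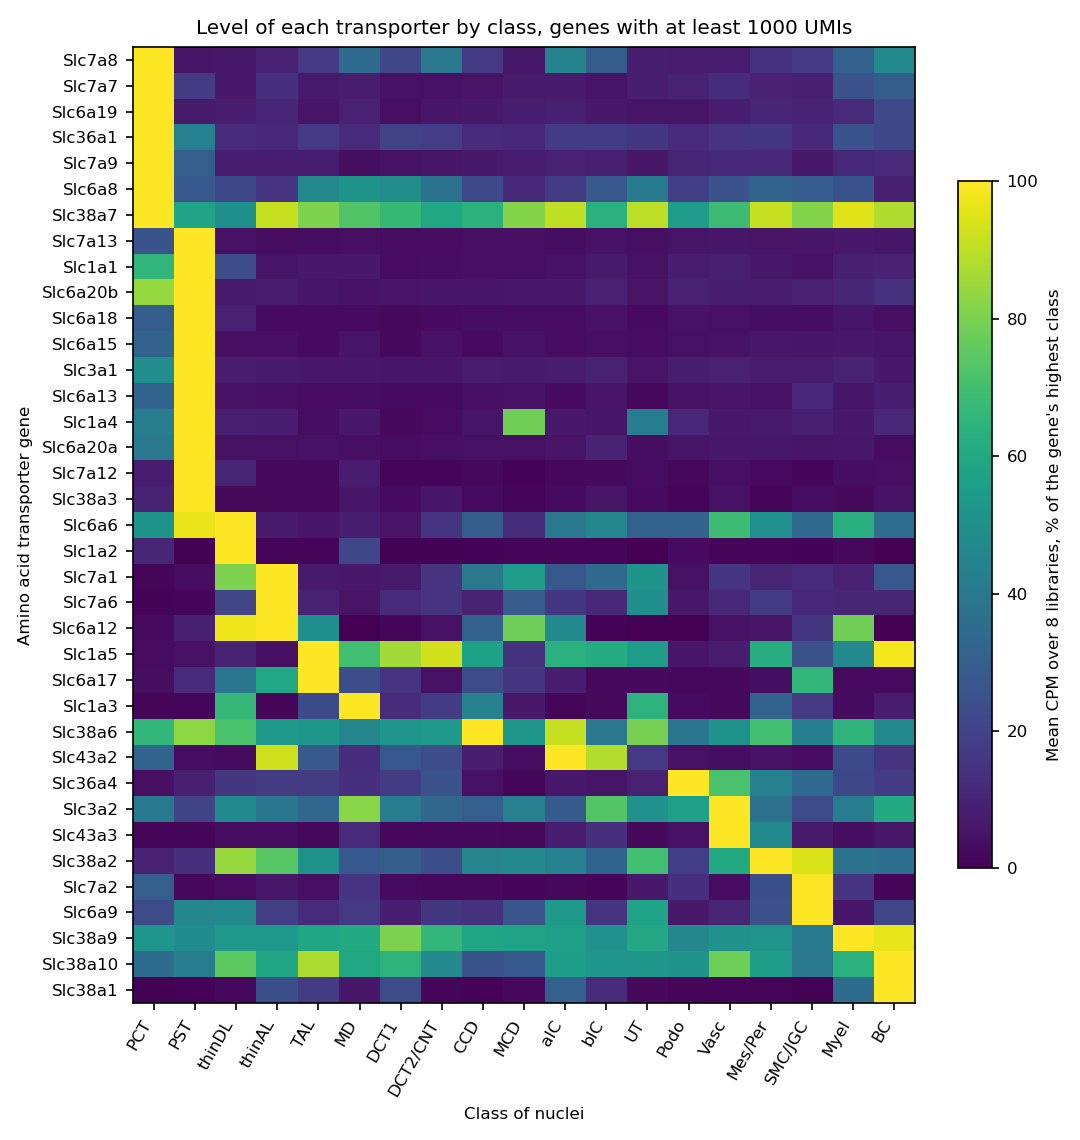
Mean level (CPM over 8 libraries, as a percentage of the gene's highest class, colour) of the transporters with at least 1000 UMIs (y axis) in 19 classes of nuclei (x axis). The upper block of genes is brightest in PCT or PST, and the genes below it are brightest in 12 other classes: thinDL, thinAL, TAL, MD, CCD, aIC, Podo, Vasc, Mes/Per, SMC/JGC, Myel and BC.

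Within the proximal tubule the members divided between its early and late clusters. Of 28 members with at least 1000 proximal UMIs, 14 were higher in PST than in PCT clusters 2, 5 and 6 in all 8 libraries, 10 were lower in all 8, and 4 did neither. The share of all genes with such an order was not taken, so these counts do not set the members apart from other genes. The level in Vasc, outside the tubule, is given beside some of them. Vasc nuclei were shallower, with a median of 2080 UMIs against 5651 in PCT and 7291.5 in PST, and are no limit of free RNA for proximal nuclei: Slc5a2 had 22.6 CPM in PST and 39.7 CPM in Vasc, and Cyp7b1 65.6 CPM in clusters 2, 5 and 6 and 218 CPM in Vasc. The part of free RNA in the low levels was not tested. These levels describe the classes and carry no test.

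Among the apical carriers, Slc6a19, the main sodium-dependent carrier of neutral amino acids, was an early gene, with 451 ± 246 CPM in PCT clusters 2, 5 and 6, 47.6 ± 26.3 CPM in clusters 4 and 11 and 19.1 ± 5.31 CPM in PST, against 20.1 ± 7.08 CPM in Vasc. Its levels in PST and Vasc were close. Slc7a9, the light chain of the cystine and dibasic amino acid exchanger, had 231 ± 76.75, 98.9 ± 32.55 and 52.2 ± 10.9 CPM in the same order, whereas Slc3a1, its heavy chain, had 195 ± 41.25, 233 ± 51.4 and 432 ± 99.6 CPM. The partners of this exchanger thus had opposite gradients, each in 8 of 8 libraries. Slc7a13, a late cystine and acidic amino acid carrier that also pairs with the Slc3a1 product, had 77.9 ± 18.8, 948 ± 219 and 1852 ± 346 CPM, and 116 ± 21.2 CPM in Vasc. Slc6a18, a carrier of glycine and other neutral amino acids, had 77.1 ± 30.6, 528 ± 99.8 and 945 ± 139 CPM in this order.

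Other apical carriers were spread over the whole proximal tubule. Slc1a1, which takes up glutamate and aspartate, had 480 ± 67.0, 626 ± 112 and 832 ± 156 CPM in clusters 2, 5 and 6, clusters 4 and 11 and PST. Slc6a20b had 446 ± 76.8, 582 ± 94.2 and 603 ± 74.0 CPM. The related gene Slc6a20a had 32.0 ± 5.94, 46.6 ± 6.99 and 96.0 ± 20.2 CPM. Both Slc6a20 genes were higher in PST than in clusters 2, 5 and 6 in 8 of 8 libraries, and as related copies they may share reads, so the division of counts between them is uncertain. Slc36a1, a proton-coupled carrier of small amino acids, took the other direction, with 211 ± 31.9, 192 ± 20.3 and 88.6 ± 9.77 CPM. Slc36a2, a relative of Slc36a1, had 13 UMIs in PCT and 6 in PST and is described with the adipocyte nuclei.

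Several basolateral carriers were early genes. Slc7a8, the light chain of a neutral amino acid exchanger, had 883 ± 279 CPM in PCT clusters 2, 5 and 6, 63.5 ± 27.7 CPM in clusters 4 and 11 and 30.0 ± 7.25 CPM in PST, and 38.2 ± 13.9 CPM in Vasc. Slc7a7, the light chain that exports cationic amino acids, had 949 ± 295, 133 ± 67.0 and 98.9 ± 34.3 CPM against 75.6 ± 16.2 CPM in Vasc. Slc43a2, a uniporter of large neutral amino acids, had 510 ± 71.6, 152 ± 37.25 and 36.1 ± 6.44 CPM. Each of these genes was higher in clusters 2, 5 and 6 than in PST in 8 of 8 libraries. Slc3a2, the heavy chain that Slc7a7 and Slc7a8 need at the membrane, had 43.7 ± 11.1, 26.7 ± 5.95 and 18.5 ± 2.91 CPM, and had its highest level in Vasc (90.3 ± 14.5 CPM), although 40.0% of its UMIs were proximal. Slc38a3, a glutamine carrier, was the late gene of this list, with 1.41 ± 1.02, 12.6 ± 6.59 and 63.3 ± 21.1 CPM. Slc38a2, Slc7a6 and Slc43a1 had their highest levels outside the proximal tubule.

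Of the osmolyte and creatine carriers, Slc6a13, which takes up betaine, taurine and GABA, was a proximal gene with a late maximum, at 41.2 ± 20.4, 81.7 ± 33.1 and 182 ± 43.6 CPM. Slc6a8, the creatine carrier, went the other way, with 79.5 ± 18.7, 38.8 ± 10.6 and 16.9 ± 5.44 CPM. Slc6a6, the taurine carrier, was high in several classes at once, with 691 ± 212 CPM in thinDL, 670 ± 319 CPM in PST and 476 ± 117 CPM in Vasc. Its first class exceeded the second in only 5 of 8 libraries, so these levels do not separate thinDL from PST. Slc6a12, the betaine carrier of the medulla, had 17.8 ± 7.33 CPM in thinAL and 17.3 ± 3.91 CPM in thinDL, which also did not differ beyond their spread.

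Further proximal members came from lists not named for the proximal tubule. Slc6a15, a carrier of branched-chain amino acids and proline, had 201 ± 60.5 CPM in clusters 2, 5 and 6 and 746 ± 290 CPM in PST. Slc1a4, a carrier of alanine, serine and cysteine, had 17.1 ± 9.01 CPM in clusters 2, 5 and 6 and 100.0 ± 37.3 CPM in PST, and 78.2 ± 35.0 CPM in MCD. Slc7a2, a carrier of cationic amino acids, had 46.2 ± 24.8 CPM in clusters 2, 5 and 6 and 1.93 ± 1.30 CPM in PST, but its highest class was SMC/JGC with 85.2 ± 36.6 CPM. Slc7a12, a light chain of the family of small neutral amino acid exchangers, had 174 ± 185 CPM in PST, a spread that followed genotype and is taken up with the comparisons.

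**Figure D2:**
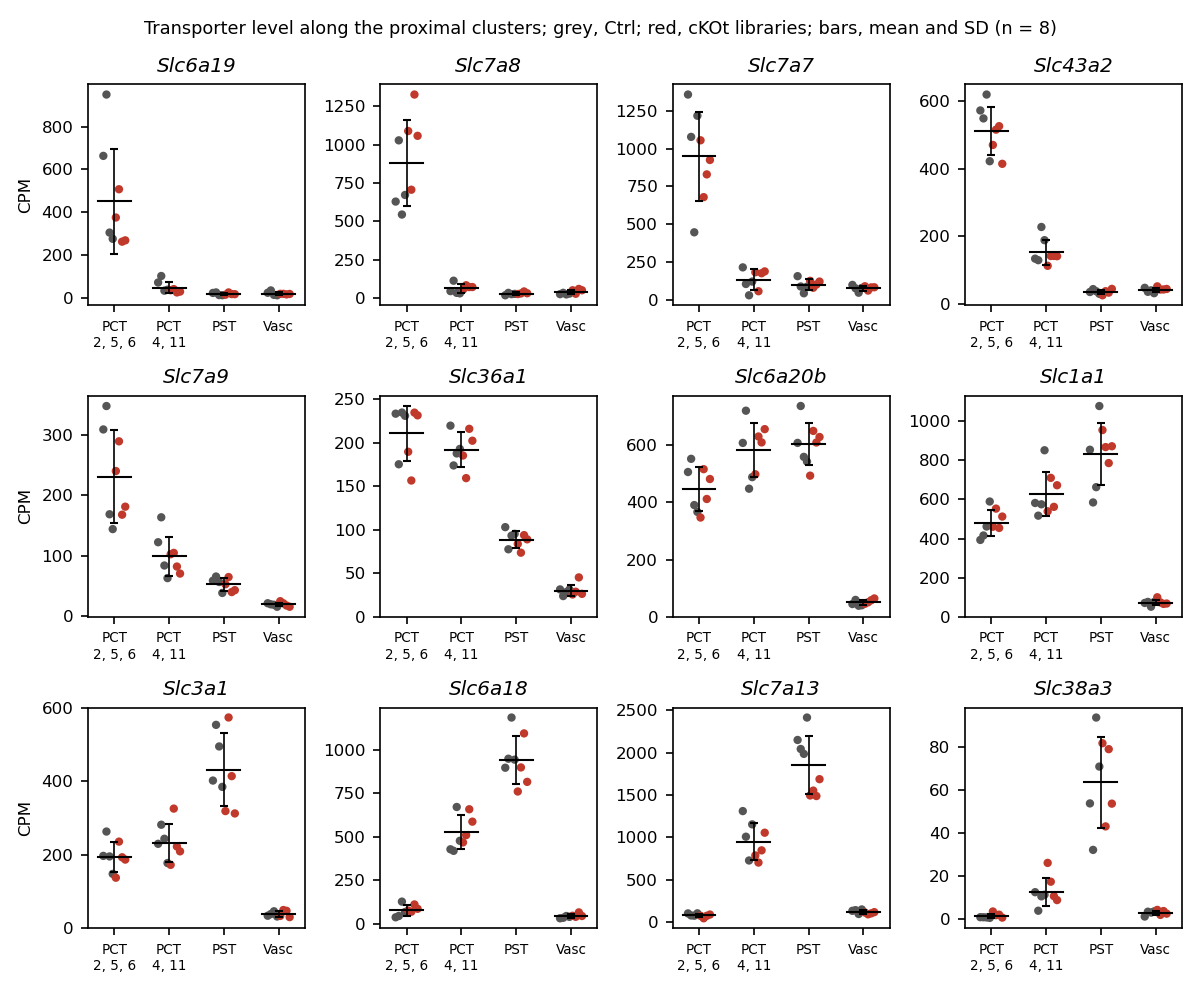
Level (CPM, y axis) of 12 transporters in PCT clusters 2, 5 and 6, PCT clusters 4 and 11, PST and Vasc (x axis), 1 point per library (grey, Ctrl; red, cKOt), with mean and SD over 8 libraries. Slc6a19, Slc7a8, Slc7a7 and Slc43a2 are lower in PST than in PCT clusters 2, 5 and 6, and Slc7a13, Slc6a18, Slc3a1 and Slc38a3 are higher.

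Outside the proximal tubule, some members led in a single class and others had similar levels in several. Slc43a2 had higher levels in aIC (1087 ± 228 CPM), thinAL (1009.5 ± 105 CPM) and bIC (960.2 ± 170 CPM) than the 510 ± 71.6 CPM of PCT clusters 2, 5 and 6, and the first 3 levels overlapped. ThinAL also had the highest mean of Slc7a1, the general carrier of cationic amino acids (325 ± 44.4 CPM, against 260.2 ± 48.7 CPM in thinDL), an order kept in 6 of 8 libraries. It led for Slc7a6, a light chain exporting cationic amino acids (221 ± 25.3 CPM, against 110.1 ± 23.2 CPM in UT). TAL led for Slc6a17, a vesicular carrier of neutral amino acids known from neurons, with 153 ± 12.1 CPM in all 8 libraries above the next class, and shared Slc1a5, a glutamine carrier, with BC and DCT2/CNT at 157 ± 21.0, 155 ± 53.9 and 146 ± 16.1 CPM. Slc1a2, the main glial glutamate carrier of the brain, had 75.3 ± 16.5 CPM in thinDL and 16.1 ± 12.4 CPM in MD. Slc6a7, the proline carrier of brain, had 37.0 ± 25.9 CPM in MD from only 20 UMIs, and was above the next class in 8 of 8 libraries. Slc1a3, another glutamate carrier, had 133 ± 58.6 CPM in MD and 88.4 ± 35.6 CPM in thinDL, an order kept in 5 of 8 libraries.

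Other members had their highest level in vessels, stroma, glomerulus, immune cells, urothelium or the distal nephron. Slc38a11 had 277 ± 137 CPM in SMC/JGC and 16.7 ± 11.4 CPM in MCD, the next class. Slc43a3, a carrier of purine nucleobases, had 263 ± 21.7 CPM in Vasc and 126 ± 29.9 CPM in Mes/Per. Slc38a2, a sodium-coupled carrier of small neutral amino acids, had 524 ± 115 CPM in Mes/Per and 494 ± 185 CPM in SMC/JGC, and Slc43a1, a uniporter of large neutral amino acids, 16.0 ± 6.496 CPM in Mes/Per. Podo led for Slc38a4 (64.6 ± 26.5 CPM) and Slc36a4 (70.2 ± 16.2 CPM), BC for Slc38a1, a glutamine carrier (239 ± 102 CPM), and CCD for Slc38a6 (191 ± 26.7 CPM), which exceeded the next class in 6 of 8 libraries and had 50.4% of its UMIs in the proximal tubule. Slc38a9, the lysosomal arginine sensor, had 204 ± 22.5 CPM in Myel, its highest class, above the next in 5 of 8 libraries, and 43.7% of its UMIs were proximal. Slc7a15 had its highest mean in DCT2/CNT (22.5 ± 8.17 CPM), above thinAL, the next class (17.4 ± 11.3 CPM), in 4 of 8 libraries. Slc7a3 (6.87 ± 4.43 CPM) and Slc6a2 (5.40 ± 2.63 CPM) were highest in UT at low levels. Slc7a5, a light chain that carries large neutral amino acids, had its highest mean in BC, with 8.83 ± 10.3 CPM from 0.77% of its 653 UMIs, above TAL, the next class (6.32 ± 1.37 CPM), in 4 of 8 libraries.

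Time and genotype were compared on UMIs summed over each library, over all nuclei and within PCT, PST and the other classes, with edgeR's quasi-likelihood test over all protein-coding genes that passed a filter of 5 counts in both libraries of a group. Levels in these comparisons are CPM scaled by TMM factors. Sums over all nuclei mix the share of a class with its level per nucleus, and these cannot be told apart there. The 4 comparisons share libraries with each other. Few genes of any kind passed the test, and beside each count of members the share of all tested genes called in that comparison is given. Where libraries are said not to overlap between groups, the share of all genes with such an order was not taken. With so few libraries such an order is a description and no test.

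In control mice, the comparison of ZT16 with ZT4 asks which transporters differ between the active and the resting phase. Of 51 members tested over all nuclei 1 was called, lower at ZT16 (0.142% of all genes were called), of 46 in PCT 2, both lower (0.466% of all genes), and of 37 in PST none (0.05% of all genes). In PST, 8 members (21.6%) had an unadjusted p under 0.05 by edgeR, as did 7.0% of all genes, and DESeq2 called 0 members. Over all nuclei 9 members (17.6%) had such an edgeR p and in PCT 11 (23.9%), as did 9.95 and 11.2% of all genes. DESeq2 called 3 members over all nuclei and 3 in PCT, and of all genes 1.44% over all nuclei, 1.80% in PCT and 0.208% in PST. The median log2 fold change of the members in PCT was -0.19, against 0.01 over all genes tested. Over all nuclei it was -0.118, against -0.003, and in PST 0.048, against 0.0006.

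Slc6a19 was the member called over all nuclei. Its level in PCT was 392.3 and 521 CPM in Ctrl ZT4, 192 and 145 CPM in Ctrl ZT16, 234 and 327 CPM in cKOt ZT4 and 156 and 173 CPM in cKOt ZT16. In both genotypes the ZT16 libraries lay below both ZT4 libraries. In PCT of control mice Slc6a19 fell by 1.44 on the log2 scale, or 2.71-fold (SE 0.23, edgeR adjusted p = 0.0401), and over all nuclei by 1.47 (SE 0.19, edgeR adjusted p = 0.0348), from 179 and 206 CPM to 81.8 and 57.7 CPM. Within clusters 2, 5 and 6 alone it fell by 1.49 (SE 0.22, edgeR adjusted p = 0.0258), and in clusters 4 and 11 the difference was -1.29 and was not called (edgeR adjusted p = 0.0699). Over all nuclei the call was lost without Ctrl ZT4 library 1 or 2, Ctrl ZT16 library 2 or cKOt ZT16 library 1 or 2, with edgeR adjusted p from 0.0679 to 0.173, and in PCT without any Ctrl library or either cKOt ZT16 library, with edgeR adjusted p from 0.0853 to 0.262.

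Slc7a9 was the other member called in PCT. Its level was 221 and 259 CPM in Ctrl ZT4, 129.9 and 101 CPM in Ctrl ZT16, 183 and 217 CPM in cKOt ZT4 and 128 and 138 CPM in cKOt ZT16. As for Slc6a19, the ZT16 libraries of each genotype lay below its ZT4 libraries. The difference in control mice was -1.06 (SE 0.18, edgeR adjusted p = 0.0469) in PCT and -1.08 (SE 0.16, edgeR adjusted p = 0.0259) in clusters 2, 5 and 6, and -0.998, not called, in clusters 4 and 11 (edgeR adjusted p = 0.101). Over all nuclei it was -1.05 and missed the threshold (edgeR adjusted p = 0.0641), but was called by DESeq2, with no filter and with lncRNAs in the fit (adjusted p = 4.3e-06 by DESeq2, 0.0250 and 0.0444 by edgeR). The call in PCT was lost without any Ctrl library or either cKOt ZT16 library, with edgeR adjusted p from 0.107 to 0.333. Slc3a1, the partner chain of Slc7a9, had 206 and 283 CPM in Ctrl ZT4 and 205 and 171 CPM in Ctrl ZT16, with a difference of -0.38 that was not called (edgeR adjusted p = 0.644).

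The promoters of these 2 genes, the members that were both lower at ZT16 in PCT, are shown as the 250 bases before the RefSeq start, in build GRCm38.p6 and 5′ to 3′ on the gene's strand. Capitals mark a match, on either strand, to any of the motifs searched: the E-box CACGTG that the BMAL1 and CLOCK dimer binds, the D-box TTATGTAA of the PAR bZIP factors, the palindromic HNF1 motif, the CCAAT box and the TATA box TATAAA. The Slc6a19 window is chr13:73692637-73692886 on the minus strand, and the Slc7a9 window is chr7:35448842-35449091 on the plus strand, the upstream of 2 starts listed.
Slc6a19: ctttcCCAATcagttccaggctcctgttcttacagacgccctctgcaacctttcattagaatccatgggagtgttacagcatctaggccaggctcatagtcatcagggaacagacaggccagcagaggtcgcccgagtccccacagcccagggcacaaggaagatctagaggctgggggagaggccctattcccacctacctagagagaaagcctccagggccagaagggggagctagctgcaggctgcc
Slc7a9: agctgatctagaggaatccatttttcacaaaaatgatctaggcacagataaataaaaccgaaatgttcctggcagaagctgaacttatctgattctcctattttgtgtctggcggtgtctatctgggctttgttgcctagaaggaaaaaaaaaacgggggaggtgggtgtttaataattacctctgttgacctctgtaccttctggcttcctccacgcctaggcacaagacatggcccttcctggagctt
The Slc6a19 window held a CCAAT box at positions -245 to -241 from the start, and none of these motifs was found in the Slc7a9 window. Among the 32851 promoters of the table, 6.02% held the E-box, 0.819% the D-box, 0.00913% the HNF1 motif, 33.8% CCAAT and 12.4% TATAAA. Counted by gene, at least 1 promoter held the E-box in 6.86% and the D-box in 0.977% of 27025 genes, and of the 34 members listed there, 5 held the E-box (Slc1a6, Slc36a1, Slc38a7, Slc43a1 and Slc7a14) and 0 the D-box. A match describes letters and not binding. Only exact matches were sought, and the HNF1 motif is rare in this form, so its absence says little about variant sites.

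Members that missed the threshold in this comparison had values in both directions. In PCT, Slc6a13 had 37.2 and 46.4 CPM in Ctrl ZT4 and 103 and 65.1 CPM in Ctrl ZT16 (edgeR adjusted p = 0.177, and 0.0102 by DESeq2 and 0.0452 by edgeR with no filter). Slc6a18 had 204 and 250.04 CPM in Ctrl ZT4 and 324 and 313 CPM in Ctrl ZT16 (edgeR adjusted p = 0.274). Slc6a20b had 535 and 662 CPM in Ctrl ZT4 and 395 and 452 CPM in Ctrl ZT16 (edgeR adjusted p = 0.393). The pairs of libraries did not overlap for these 3 genes, which by itself does not show a difference. Of the 10 apical carriers and their partner, 9 were tested in PCT, 0 rose, 2 fell and 7 were not called, with a median log2 fold change of -0.21. Of all genes 0.466% were called in this comparison. Of the 8 basolateral carriers and the 4 osmolyte and creatine carriers, all tested, 0 were called, with medians of 0.05 and 0.36.

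**Figure D3:**
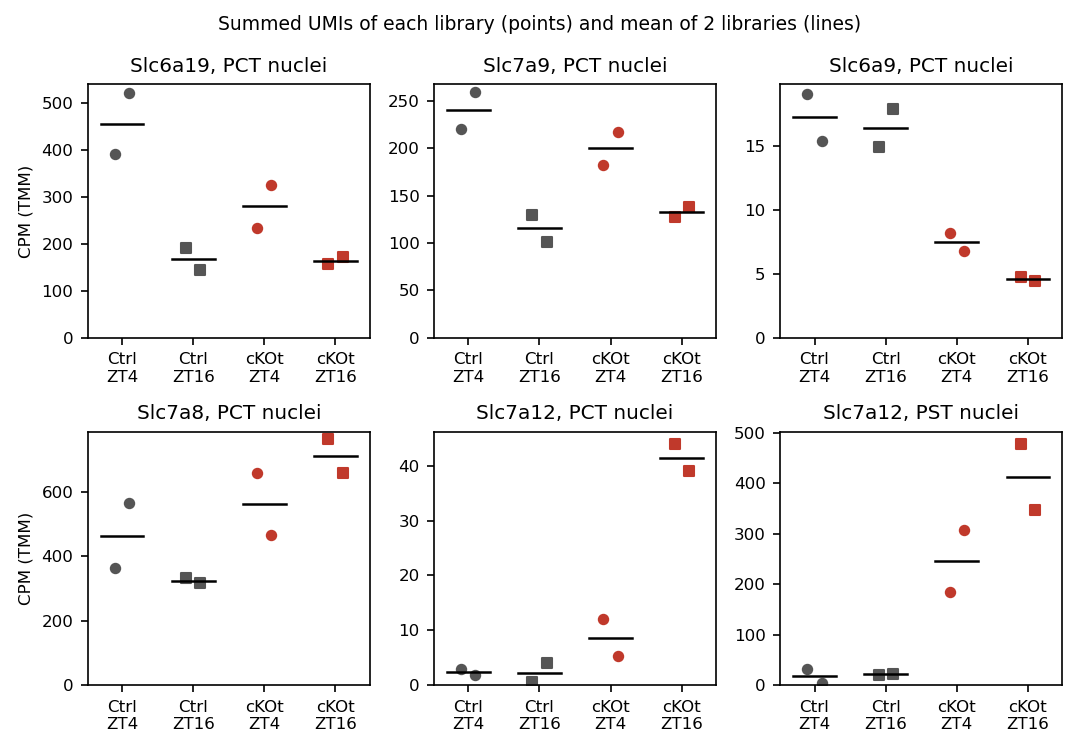
Level (CPM with TMM scaling, y axis) of the called members and Slc7a8 in PCT, and of Slc7a12 in PST, by group (x axis), 1 point per library (grey, Ctrl; red, cKOt) with the mean of 2 libraries as a line. Slc6a19 and Slc7a9 sit lower at ZT16, Slc6a9 sits lower and Slc7a12 higher in cKOt.

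The comparison of cKOt with Ctrl asks which transporters depend on the tubular clock. Over all nuclei 1 of 51 members tested was called at ZT4 (0.446% of all genes were called) and 1 of 50 at ZT16 (0.174% of all genes). In PCT 1 of 47 was called at ZT4 (0.732% of all genes) and 2 of 43 at ZT16 (0.315% of all genes), and in PST 1 of 37 at each time point (0.435 and 0.481% of all genes). These edgeR calls involved 2 genes, Slc7a12, which was higher in cKOt, and Slc6a9, which was lower. DESeq2 called 2 and 3 members over all nuclei, 1 and 3 in PCT and 1 and 3 in PST, and of all genes 2.16 and 1.06%, 2.15 and 1.37%, and 0.845 and 1.12%. EdgeR gave an unadjusted p under 0.05 over all nuclei for 10 members at ZT4 (19.6%) and 5 at ZT16 (10.0%). In PCT these were 10 (21.3%) and 3 (6.98%), and in PST 5 (13.5%) and 8 (21.6%). Of all genes, the shares were 8.87 and 6.10% over all nuclei, 8.70 and 7.25% in PCT and 6.97 and 8.95% in PST. Without Slc36a2, the members at ZT4 were 9 over all nuclei and 9 in PCT. The targeted gene, Arntl, had 11.6 and 15.1 CPM in PCT of Ctrl ZT4, 193 and 208 CPM in Ctrl ZT16, 320.0 and 212 CPM in cKOt ZT4 and 319.8 and 296 CPM in cKOt ZT16. Its counts were called higher in cKOt at ZT4, by 4.31 on the log2 scale in PCT and 3.34 in PST (edgeR adjusted p = 0.000249 and 0.000272), and at ZT16 in PST by 1.38 (edgeR adjusted p = 0.0332), whereas the ZT16 difference of 0.62 in PCT was not called (edgeR adjusted p = 0.469). The interaction in PCT was also called, at -3.69 (edgeR adjusted p = 0.0156). These counts cover the whole gene and are not limited to the floxed exon, so they do not check the deletion.

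Slc7a12 was called higher in cKOt at both time points over all nuclei and in PST. In PST its level was 31.9 and 4.57 CPM in Ctrl ZT4, 19.3 and 22.5 CPM in Ctrl ZT16, 185 and 308 CPM in cKOt ZT4 and 478 and 347 CPM in cKOt ZT16. Every cKOt library exceeded every Ctrl library, and the UMIs in PST were 15 to 79 per Ctrl library and 516 to 2192 per cKOt library. The log2 difference in PST was 3.85 at ZT4 (14.4-fold, SE 0.61, edgeR adjusted p = 0.0321) and 4.31 at ZT16 (19.8-fold, SE 0.60, edgeR adjusted p = 0.0127). Over all nuclei it was 3.37 at ZT4 (10.3-fold, SE 0.47, edgeR adjusted p = 0.0274) and 4.24 at ZT16 (18.9-fold, SE 0.48, edgeR adjusted p = 0.0173). No promoter of Slc7a12 is shown.

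The levels of Slc7a12 in PCT were lower than in PST and followed the same order by genotype. They were 2.92 and 1.77 CPM in Ctrl ZT4, 0.53 and 3.99 CPM in Ctrl ZT16, 12.1 and 5.25 CPM in cKOt ZT4 and 44.1 and 39.0 CPM in cKOt ZT16. The difference at ZT16 was called (log2 difference 4.31, SE 0.68, edgeR adjusted p = 0.0491), and it was 4.33 in clusters 2, 5 and 6 and 4.43 in clusters 4 and 11 (edgeR adjusted p = 0.0153 and 0.0293). At ZT4 in PCT it was 1.89 and was not called (edgeR adjusted p = 0.401). In Vasc, which is not part of the tubule, Slc7a12 had 0.40 and 0.00 CPM in Ctrl ZT4, 1.09 and 0.92 CPM in Ctrl ZT16, 6.98 and 9.30 CPM in cKOt ZT4 and 22.1 and 14.5 CPM in cKOt ZT16. The same genotype order thus appeared there far below the PST level, and the part of free RNA in the values of Vasc, PCT and the distal classes was not tested. ThinDL, with the highest mean of Slc7a12 after PST (18.3 CPM), did not keep this order. Its Ctrl ZT4 libraries had 10.1 and 20.3 CPM, and its Ctrl ZT16 libraries 7.9 and 19.3 CPM. In cKOt ZT4 the levels were 29.3 and 12.8 CPM, and in cKOt ZT16 they were 38.1 and 8.63 CPM. The genotypes overlapped at both time points, and Slc7a12 was not called in thinDL. The Ctrl levels in thinDL lay within the range of those in PST.

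The calls of Slc7a12 over all nuclei, in PST and in PCT were lost when certain single libraries were left out, some of them libraries of neither compared group. Whether a loss reflects the library itself or the smaller number of libraries was not tested. Over all nuclei the ZT4 call of Slc7a12 was lost without Ctrl ZT4 library 2 or either cKOt ZT4 library (edgeR adjusted p from 0.0552 to 0.150) and the ZT16 call without either Ctrl ZT16 library or cKOt ZT16 library 1 (0.0662 to 0.116). In PST the ZT4 call was lost without either Ctrl ZT16 or cKOt ZT16 library (edgeR adjusted p from 0.0501 to 0.0609) and the ZT16 call without any of the same 4 libraries (0.0501 to 0.183). In PCT the ZT16 call was lost without either Ctrl ZT4 library, Ctrl ZT16 library 1 or either cKOt ZT16 library (edgeR adjusted p from 0.0773 to 0.305). With single libraries left out the log2 difference ran from 2.82 to 4.16 at ZT4 and from 3.76 to 4.76 at ZT16 over all nuclei, and from 4.06 to 4.51 at ZT16 in PST. At ZT4 in PST it was 5.75 without Ctrl ZT4 library 1 and 2.95 without library 2, and at ZT16 in PCT 3.38 without Ctrl ZT16 library 1 and 6.29 without library 2, so that the size of the fold rests on single control libraries. The ZT16 call in PCT also missed the threshold with relative log expression factors, without doublets and with 50 components (edgeR adjusted p = 0.0501, 0.0567 and 0.0563).

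Slc6a9, a glycine carrier, was the member called lower in cKOt. In PCT its level was 19.0 and 15.4 CPM in Ctrl ZT4, 14.9 and 17.8 CPM in Ctrl ZT16, 8.20 and 6.78 CPM in cKOt ZT4 and 4.76 and 4.40 CPM in cKOt ZT16. All cKOt libraries lay below all Ctrl libraries. The gene fell by 1.2 on the log2 scale at ZT4 (SE 0.20, edgeR adjusted p = 0.0450) and by 1.83 at ZT16 (SE 0.21, edgeR adjusted p = 0.0135). In PST it had 25.7 and 33.2 CPM in Ctrl ZT4, 33.2 and 35.5 CPM in Ctrl ZT16, 13.2 and 20.0 CPM in cKOt ZT4 and 13.3 and 12.3 CPM in cKOt ZT16, with no overlap between genotypes and differences of -0.82 and -1.41 that missed the threshold (edgeR adjusted p = 0.420 and 0.0512). The ZT16 difference in PST was called under 4 of 5 other settings, namely DESeq2 (adjusted p = 0.0156) and edgeR with relative log expression factors, with lncRNAs in the fit or with no filter (adjusted p = 0.0495, 0.0489 and 8.3e-05). Its highest class was SMC/JGC with 50.4 ± 25.2 CPM (SD, n = 8), and in Vasc it had 5.37 ± 0.965 CPM.

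The calls of Slc6a9 depended on clusters and libraries. At ZT16 the difference was -1.60 in clusters 2, 5 and 6 and -1.90 in clusters 4 and 11 (edgeR adjusted p = 0.0507 and 0.0209), and at ZT4 it was -1.24 and -1.12 (edgeR adjusted p = 0.0551 and 0.107). The ZT4 call was lost without any single library (edgeR adjusted p from 0.0581 to 0.261), and the ZT16 call without Ctrl ZT16 library 2 or either cKOt ZT16 library (edgeR adjusted p from 0.0872 to 0.177). Both were lost with PCT nuclei thinned to 1000 UMIs (edgeR adjusted p = 0.216 and 0.0754).

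Slc6a6 in PST had 538 and 942 CPM in Ctrl ZT4, 1194.5 and 877 CPM in Ctrl ZT16, 397 and 568 CPM in cKOt ZT4 and 523 and 300.3 CPM in cKOt ZT16. The genotypes did not overlap at ZT16 and overlapped at ZT4. The difference at ZT16 was -1.33 (SE 0.34) and was not called (edgeR adjusted p = 0.185), whereas DESeq2 and edgeR with no filter called it (adjusted p = 0.00634 and 7.6e-07).

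Slc7a8, of the basolateral carriers, missed the threshold between genotypes by edgeR and was called at ZT16 by DESeq2. In PCT it had 363 and 566 CPM in Ctrl ZT4, 333 and 316 CPM in Ctrl ZT16, 659 and 465 CPM in cKOt ZT4 and 765 and 659 CPM in cKOt ZT16. The genotypes did not overlap at ZT16 and overlapped at ZT4. At ZT16 the log2 difference was 1.13 in PCT (SE 0.25, edgeR adjusted p = 0.157) and 1.202 over all nuclei (SE 0.21, edgeR adjusted p = 0.0931), neither of which passed, whereas DESeq2 called both (DESeq2 adjusted p = 0.00103 and 6.1e-06), as did edgeR with no filter (adjusted p = 0.0232 and 0.0298). Slc38a2, of the same list, had 101 and 121 CPM in Ctrl ZT16 and 68.7 and 51.3 CPM in cKOt ZT16 in PST. Its difference there was -0.88 at ZT16 (SE 0.21) and -0.58 at ZT4, neither called (edgeR adjusted p = 0.127 and 0.558). Slc7a7, Slc43a2 and Slc3a2 were not called in any of the comparisons over all nuclei, in PCT or in PST. The call of Slc43a2 in aIC is given with the other classes.

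In cKOt mice, ZT16 against ZT4 asks which time differences remain without the tubular clock. By edgeR 0 members were called over all nuclei, in PCT and in PST, as were 0.00% of all genes in each. Unadjusted p was under 0.05 for 7, 12 and 3 members (13.7, 26.1 and 8.33%) and for 8.32, 7.97 and 4.42% of all genes. Without Slc36a2, described below with the adipocyte nuclei, it was under 0.05 for 6, 11 and 3 members. DESeq2 called 1, 1 and 0 members, and 1.02, 0.660 and 0.0167% of all genes. The member DESeq2 called over all nuclei was Slc6a19, with 116 and 149 CPM in cKOt ZT4 and 78.2 and 78.3 CPM in cKOt ZT16 (log2 difference -0.76, adjusted p = 0.0169 by DESeq2 and 0.281 by edgeR). In PCT the log2 difference of Slc6a19 was -0.77 (SE 0.22, edgeR adjusted p = 0.436) and Slc7a9 -0.59 (SE 0.17, edgeR adjusted p = 0.444). Slc6a6 had 362 and 592 CPM in cKOt ZT4 and 255 and 266 CPM in cKOt ZT16 in PCT, with no overlap between the time points (log2 difference -0.87, SE 0.23, edgeR adjusted p = 0.351, DESeq2 adjusted p = 0.0477).

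The difference of the genotype effect between the time points, equal to the difference of the time effect between genotypes, was tested as an interaction. By edgeR 0 members were called over all nuclei, in PCT and in PST, against 0.0183, 0.0350 and 0.00% of all genes. Unadjusted p was under 0.05 for 7, 5 and 3 members (13.7, 10.6 and 7.69%) and for 4.35, 4.11 and 3.18% of all genes, and for 6, 5 and 3 members without Slc36a2. DESeq2 called 0 members in each, and 0.294, 0.252 and 0.0485% of all genes. For Slc6a19 the interaction was 0.67 in PCT (SE 0.31) and for Slc7a9 0.47 (SE 0.25), with an edgeR adjusted p of 1.00 for each. A time difference called by edgeR in Ctrl and not in cKOt is therefore not shown to differ between the genotypes.

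**Figure D4:**
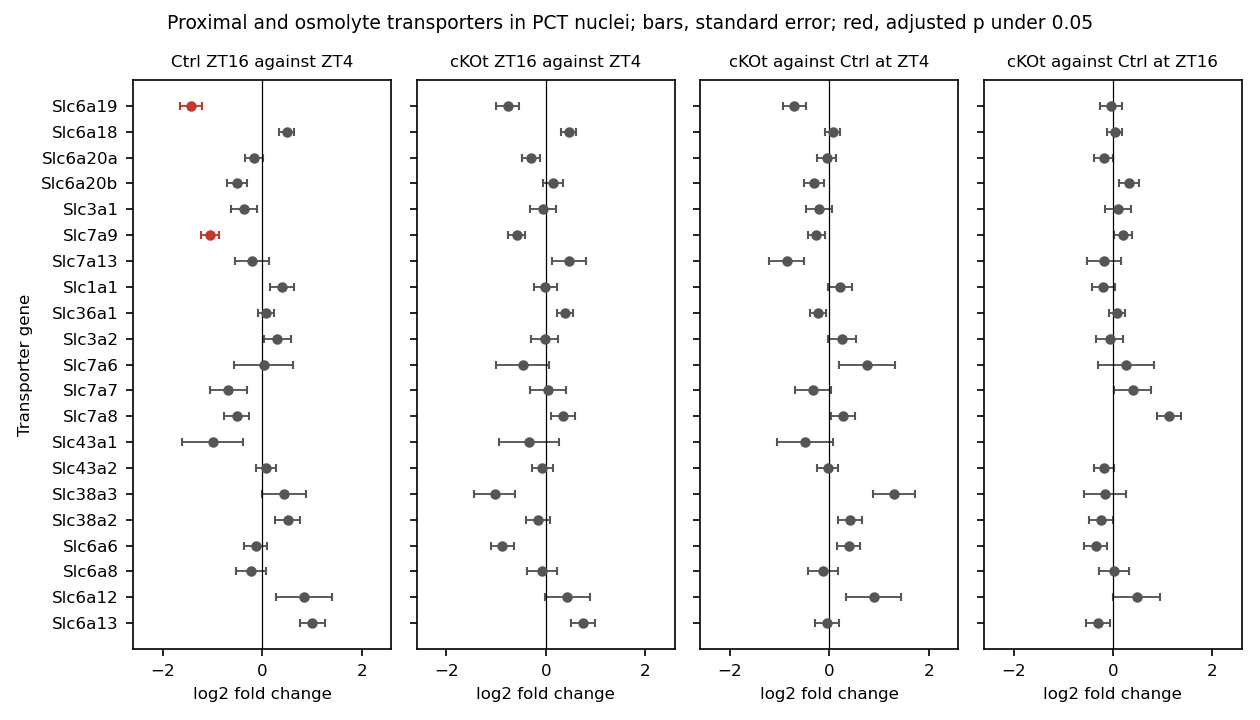
Log2 fold change with its standard error (x axis) of apical, basolateral, osmolyte and creatine carriers (y axis) in PCT nuclei for the 4 comparisons, red where the edgeR adjusted p is under 0.05. Slc6a19 and Slc7a9 at ZT16 against ZT4 in Ctrl are the red points, at -1.44 and -1.06, and the points of the same genes in cKOt lie at -0.77 and -0.59.

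In the 17 other classes compared, 10 of 1897 tests of a member passed (0.527%), 8 higher and 2 lower, over 68 pairs of class and comparison, against 0.196% of all genes. This count includes calls of Slc7a12, given below, that passed the filter on low counts only through the cKOt libraries. It is therefore not read as a result about the members. In CCD, Slc7a1 had 88.1 and 51.2 CPM in Ctrl ZT4, 164 and 151 CPM in Ctrl ZT16, 188 and 112 CPM in cKOt ZT4 and 128 and 151 CPM in cKOt ZT16. The Ctrl ZT4 libraries were the lowest. The gene rose by 1.25 from ZT4 to ZT16 in Ctrl (SE 0.25, edgeR adjusted p = 0.0159) and was 1.17 higher in cKOt at ZT4 (edgeR adjusted p = 0.0397). Without Ctrl ZT4 library 2 the differences were 0.84 and 0.77 and both calls were lost (edgeR adjusted p = 0.391 and 0.701). The time call was also lost without either Ctrl ZT16 library (edgeR adjusted p = 0.280 and 0.118), and the genotype call without cKOt ZT4 library 1 (edgeR adjusted p = 0.675) or any ZT16 library (edgeR adjusted p from 0.0549 to 0.0853), and by DESeq2 (adjusted p = 0.125).

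Other calls in these classes were single ones. In Vasc, Slc6a6 had 319 and 366 CPM in cKOt ZT4 and 617 and 576 CPM in cKOt ZT16, a rise of 0.80 (edgeR adjusted p = 0.0143). The same gene had 377 and 418 CPM in Ctrl ZT4 against 583 and 559.9 CPM in Ctrl ZT16, so that the ZT16 libraries were higher in both genotypes. In aIC, Slc43a2 had 815 and 829.8 CPM in Ctrl ZT16 and 1472 and 1312.5 CPM in cKOt ZT16 (log2 difference 0.76, edgeR adjusted p = 0.0246). At ZT4 it had 1186 and 1052.5 CPM in Ctrl and 1129.5 and 1035 CPM in cKOt, so that the genotypes overlapped there. In DCT2/CNT, Slc6a9 had 14.8 and 17.0 CPM in cKOt ZT4 and 3.11 and 2.43 CPM in cKOt ZT16, from 24, 28, 6 and 5 UMIs, and fell by 2.50 (edgeR adjusted p = 0.0130). It had 10.6 and 8.21 CPM in Ctrl ZT4 and 5.43 and 2.46 CPM in Ctrl ZT16, so that the ZT16 libraries were lower in both genotypes, and at ZT4 the cKOt libraries lay above the Ctrl libraries, the reverse of the order in PCT and PST. The call of Slc6a6 was lost without cKOt ZT4 library 1 or either cKOt ZT16 library (edgeR adjusted p from 0.0789 to 0.258), that of Slc43a2 without any Ctrl ZT16 or cKOt ZT16 library (edgeR adjusted p from 0.0877 to 0.403), and that of Slc6a9 without cKOt ZT4 library 2 or either cKOt ZT16 library (edgeR adjusted p from 0.0945 to 0.161) and by DESeq2 (adjusted p = 0.103).

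The remaining 5 calls were of genes with high proximal levels. Slc7a12 was called higher in cKOt at ZT16 in TAL (3.62 to 8.80 CPM in cKOt and 0.00 to 1.72 CPM in Ctrl libraries), in Vasc, where ZT4 was also called, and in DCT2/CNT, where the cKOt ZT16 libraries had 17 and 8 UMIs and the Ctrl ZT16 libraries 0. These edgeR adjusted p-values were 0.0297 in TAL, 0.00284 and 0.00948 in Vasc and 0.0458 in DCT2/CNT. Each of these tests of Slc7a12 passed the filter of 5 counts only through the cKOt libraries, where it was high. The Ctrl ZT16 libraries had 1 and 4 UMIs in TAL and 4 and 3 in Vasc, and the Ctrl ZT4 libraries 1 and 0 in Vasc. The calls are therefore not read as evidence of a difference in these classes. Slc6a19 was called lower at ZT16 in Ctrl in Vasc, with 24.3 and 35.7 CPM in Ctrl ZT4 against 14.2 and 12.9 CPM in Ctrl ZT16 (edgeR adjusted p = 0.0476), beside PCT levels of 392.3 and 521 CPM and of 192 and 145 CPM in the same libraries. The calls in TAL and DCT2/CNT were lost without any Ctrl ZT16 or cKOt ZT16 library (edgeR adjusted p from 0.0816 to 0.357 and from 0.0679 to 0.524). In Vasc the ZT16 call of Slc7a12 was lost without either Ctrl ZT16 library or cKOt ZT16 library 1 (edgeR adjusted p from 0.0638 to 0.0719), its ZT4 call without either Ctrl ZT4 library (edgeR adjusted p = 0.0782 and 0.224), and the Slc6a19 call without any Ctrl or cKOt ZT16 library (edgeR adjusted p from 0.0658 to 0.386). By DESeq2 the calls of Slc7a12 in TAL, in DCT2/CNT and at ZT4 in Vasc and of Slc6a19 in Vasc were not made (adjusted p = 0.449, 0.258, 0.0788 and 0.0799), and the call of Slc6a19 was also lost with lncRNAs in the fit (edgeR adjusted p = 0.0516). In Vasc, Slc7a12 thus lay higher in cKOt and Slc6a19 lower at ZT16 in Ctrl, the directions also seen in PCT. Slc6a6 differed: in cKOt its ZT16 libraries lay above its ZT4 libraries in Vasc and below them in PCT. The part of free proximal RNA in the Vasc values was not tested.

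Beyond the members, genes of the amino acid pathway were followed in PCT. Of 36 genes of renal amino acid metabolism, all tested, 1 rose from ZT4 to ZT16 in Ctrl (0.466% of all genes were called), 1 was higher in cKOt at ZT4 (0.732% of all genes) and 0 were called in the other comparisons. Both calls were of Ddc, the aromatic amino acid decarboxylase that makes dopamine in the proximal tubule, with 67.5 and 83.7 CPM in Ctrl ZT4, 188 and 169.7 CPM in Ctrl ZT16, 315 and 317 CPM in cKOt ZT4 and 299.6 and 327 CPM in cKOt ZT16. Every other library exceeded the Ctrl ZT4 libraries, and the log2 differences were 1.24 in Ctrl from ZT4 to ZT16 (SE 0.16, edgeR adjusted p = 0.0181) and 2.06 between genotypes at ZT4 (SE 0.16, edgeR adjusted p = 0.000786). Ddc was also called higher in cKOt at both time points over all nuclei, by 2.05 and 1.12 (edgeR adjusted p = 0.000495 and 0.0233), and in PST, by 1.34 and 1.502 (edgeR adjusted p = 0.0310 and 0.0127). Of 16 accessory and other transporters, 13 were tested and 1 was called higher in cKOt at ZT4, beside the same 0.732% of all genes, Cltrn (collectrin), which Slc6a19 needs to reach the brush border. Cltrn had 189 and 181 CPM in Ctrl ZT4, 381 and 286 CPM in Ctrl ZT16, 601 and 417 CPM in cKOt ZT4 and 546 and 571 CPM in cKOt ZT16, with a difference of 1.46 at ZT4 (SE 0.21, edgeR adjusted p = 0.0238). Cltrn was also called higher in cKOt at ZT4 over all nuclei, by 1.35 (edgeR adjusted p = 0.0150), and at ZT16 in PST, by 1.06 (edgeR adjusted p = 0.0439). Its order in PCT over the groups was not that of Slc6a19, which was highest in Ctrl ZT4. Of 11 genes of the amino acid response through GCN2 and ATF4, 8 or 9 were tested and 0 called, and of 3 genes of the tonicity response 3 were tested and 0 called, in each comparison in PCT.

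Slc36a2, a carrier of glycine and proline known from kidney and brown fat, was in these libraries mostly a gene of adipocyte nuclei. Of its 521 UMIs, 425 (81.6%) lay in the cluster of 76 adipocyte nuclei, 141 and 248 of them in the cKOt ZT4 libraries, whose adipocyte nuclei numbered 25 and 41. Over all nuclei its level was 4.57 and 6.84 CPM in the cKOt ZT4 libraries and 0.00 to 0.65 CPM in the other 6. The cKOt ZT4 libraries held 444 of its UMIs and the other 6 libraries 77 in all, so that the gene met the limit of 100 UMIs only through the libraries where it was high, and no test of its difference is given. It stayed in the counts of members tested wherever it passed the filter on low counts, and its own outcome is not used.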

How the data were processed

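Nuclei of frozen kidneys were sorted on DAPI and sequenced with a droplet 3′ kit. The authors counted UMIs per gene and nucleus, and the files hold these raw counts as deposited, with no normalization. The submitters' processing notes name bcl2fastq 2.20, Cell Ranger 7.1.0, Seurat 5 and the build GRCm39, whereas the study's methods name an mm10 reference, so the build of the counts is uncertain and no coordinates were taken from them. Counting of 3′ reads can divide reads between related copies.

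Barcodes below 500 genes or 800 UMIs, or with over 2% of UMIs from mitochondrial genes, were removed. The nuclei kept were clustered without the members by the multilevel method of igraph 0.11.9 (2000 variable genes, 1000 components, 20 neighbours, resolution 2.2), after the settings of the study. A class needed a mean marker z-score of at least 0.9 and at least 3 markers. Where a cluster met the PCT and the PST rule, it was assigned to PCT, a rule set after the clusters were seen. Scrublet, run in scanpy 1.11.5, called 4342 doublets (5.33% of nuclei), which were kept. Cell classes were rebuilt here and may differ from those of the study.

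UMIs were summed per library and class, and tested with edgeR 4.0.16 (R 4.3.3; TMM factors, quasi-likelihood test, a mean per group) over protein-coding, non-mitochondrial genes with at least 5 counts in both libraries of a compared group, with Benjamini-Hochberg adjustment within each comparison and a call at an adjusted p under 0.05. DESeq2 1.42.0, a relative log expression scaling, no filter, lncRNAs in the fit, a replicate block, 5% mitochondrial UMIs, no doublets, 50 components, thinning to 1000 UMIs and leaving out each library were alternatives. The scripts were tested on simulated data. The libraries came from different mice, and p-values measure the spread between these 2 libraries per group. Promoters come from RefSeq (GRCm38.p6).

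The members and gene lists were chosen with earlier results of these data known. Genes named in the text were the members called over all nuclei, in PCT or in PST, the apical, basolateral and osmolyte carriers, up to 3 members per highest class, members next to the limit of 100 UMIs, called genes of the pathway lists, and Arntl. Other named members were chosen after their values were seen.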

Additional observations from a re-analysis of the deposited data

How the results depend on the processing

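The called log2 differences of members kept their direction under the alternatives run, and each of these calls was lost when at least 1 library was left out, the lone library then being assumed to vary like the other groups. Over all nuclei, in the order Ctrl ZT16 against ZT4, cKOt against Ctrl at ZT4, cKOt against Ctrl at ZT16 and cKOt ZT16 against ZT4, 1, 1, 1 and 0 members were called. DESeq2 called 3, 2, 3 and 1, no filter 2, 1, 2 and 0, and a fit with lncRNAs 2, 1, 1 and 0. With single libraries left out the ranges were 0 to 2, 0 to 1, 0 to 1 and 0. Of all genes, over the 4 comparisons together, 0.191% were called, 1.42% by DESeq2, 0.325% with no filter, 0.202% with lncRNAs and 0.0895 to 0.193% with single libraries left out. In PCT 2, 1, 2 and 0 were called. DESeq2 called 3, 1, 3 and 1, relative log expression factors 2, 1, 1 and 0, removal of doublets 2, 1, 1 and 0, 50 components 2, 1, 1 and 0, and thinning to 1000 UMIs 2, 0, 1 and 0. With single libraries left out the ranges in PCT were 0 to 2, 0 to 1, 0 to 2 and 0. Of all genes in PCT 0.378% were called, 1.5% by DESeq2, 0.380% with relative log expression factors, 0.432% without doublets and with 50 components, 0.451% after thinning and 0.126 to 0.496% with single libraries left out. Added after seeing the data, clusters 2, 5 and 6 alone gave 2, 0, 1 and 0, clusters 4 and 11 alone 0, 0, 2 and 0, and leaving out the adipocyte nuclei 1, 1, 1 and 0 over all nuclei, beside 0.366, 0.366 and 0.185% of all genes. In PST and the remaining classes together 12 calls became 54 with no filter and 3 to 18 with single libraries left out, while the share of all genes called went from 0.199% to 0.573% and to 0.128 to 0.243%. The cause of these changes was not tested.

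With the replicate block, 0, 0, 1 and 0 members were called over all nuclei and in PCT, beside 0.155 and 0.355% of all genes. Over all nuclei, the calls of Slc6a19 in Ctrl and of Slc7a12 at ZT4 were lost (edgeR adjusted p = 0.0765 and 0.0596), and in PCT those of Slc6a19 and Slc7a9 in Ctrl, Slc6a9 at ZT4 and Slc7a12 at ZT16 (edgeR adjusted p = 0.0562, 0.0623, 0.0637 and 0.102). The calls of Slc7a12 at ZT4 in PST and at ZT16 in TAL and of Slc6a19 in Vasc were lost as well (edgeR adjusted p = 0.0559, 0.0729 and 0.0655). The labels do not tie same-numbered libraries to one another. The correlation of same-numbered deviations was 0.41 and 0.42 over all nuclei, and 0.39 and 0.31 in PCT, between genotypes at ZT4 and at ZT16, and -0.26 to 0.19 and -0.30 to 0.19 between groups of different time points, so that not every correlation was above 0.1 and the libraries were treated as sharing only a number. The correlations between time points do not bear on a pairing within a time point. The block fitted a single replicate effect across both time points, and a pairing within each time point was not tested. With 50 components, 50 of 51 highest-class levels moved by less than 1 SD, and Slc1a2 in thinDL moved to 92.9 CPM. With 2 libraries per group, and few UMIs in small classes such as MD, a difference that was not called is not shown to be absent.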
